A study of Mus musculus with 15 samples.

Results

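Innate lymphoid cell precursors (ILCP_WT) were compared with committed early innate lymphoid progenitors (cEILP_WT), both sorted from mouse bone marrow. The comparison used 5 of the 15 bulk RNA-seq libraries of the series, 2 of ILCP_WT and 3 of cEILP_WT, and every gene of the deposited table. Of 12798 genes, 12572 passed a filter on low values (0 or more, on the log2 scale, in 2 or more of the 15 libraries) and were tested. ILCP_WT cells carried the genotype Tcf7EGFP/+ and were gated as Lin- Kit+ 2B4+ a4b7+ Tcf7+ cells positive for Thy1 and IL-7Ra. cEILP_WT cells came from Tcf7GFP Zbtb16GFP mice and were gated as Lin- Kit+ 2B4+ a4b7+ Tcf7+ cells that lacked Thy1, with high Zbtb16 and low Flt3 signal. All mice were of the C57BL/6 background, and all sorted cells of both groups carried a Tcf7 reporter allele. The reporter strain and the stage differ together, so that they cannot be told apart here. The labels do not state that the libraries of a group are separate animals, and p-values then measure only the spread between these libraries. The other libraries entered the fit: 3 of all-lymphoid progenitors (ALP_WT, Tcf7EGFP/+), 2 of specified EILP (sEILP_WT, the reporter strain of cEILP_WT), 3 of EILP with 1 null allele (EILP_WT, Tcf7EGFPnull/+) and 2 of Tcf7-null EILP (EILP_KO, Tcf7EGFPnull/-).

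Innate lymphoid cells (ILC) are tissue lymphocytes without rearranged antigen receptors that respond to cytokines of the interleukin 1 family and to common gamma chain cytokines. They arise in the bone marrow from lymphoid progenitors that switch on Tcf7, which encodes TCF-1, and later Zbtb16, which encodes PLZF. During that path progenitors lose receptors and transcription factors of multipotent cells and gain cytokine receptors, chemokine receptors and surface molecules of mature lymphocytes.

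The deposited values read as log2 CPM, a level relative to the library total, with the same distribution in every library, and depth is unknown. Many genes share the smallest value of a library (-4.83 to -4.41), 2124 and 2224 of them in the ILCP_WT libraries and 1246 to 1494 in cEILP_WT. Such genes are described as at the lowest value, and folds against a group wholly at that value were left out. In the second ILCP_WT library Flt3, Spi1, Rab44, Hoxa9 and Gbp3 share the value -0.14. A tied low value may not be a measured level, and the sizes of their falls depend on it. Across genes, the 2 ILCP_WT libraries correlated at r = 0.749, the cEILP_WT pairs at 0.832 to 0.837 and pairs between the groups at 0.696 to 0.711. The Y-linked genes Ddx3y, Eif2s3y, Kdm5d and Uty were at the lowest value in the 2 ILCP_WT libraries and lay between 2.38 and 6.65 in the cEILP_WT libraries. Xist, expressed from the inactive X chromosome, was 6.04 and 4.73 in ILCP_WT, 4.67 and 4.42 in the first and second cEILP_WT libraries and at the lowest value in the third. Sex composition and stage therefore cannot be told apart. In the third cEILP_WT library the neutrophil genes S100a8 and S100a9 stood at 7.77 and 7.79, against 1.52 or less in the other 4 libraries.

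Some risen receptor and ligand genes lie beside other changed genes in the genome. The sequence before the start sites of a few of them is shown first. Each line gives the 250 bases before an annotated start, 5′ to 3′ on the gene's strand, from RefSeq on build GRCm38.p6. Capitals mark a match to a motif, searched on both strands. The letters were AGATAA for the GATA factor family and TGTGGT for the RUNX family. They were CTTTGA for the TCF and LEF family, CAGCTG as the E-box of bHLH proteins and AGGTCA as the half-site of ROR receptors.
Ccr9, plus strand, chr9:123766961-123767210: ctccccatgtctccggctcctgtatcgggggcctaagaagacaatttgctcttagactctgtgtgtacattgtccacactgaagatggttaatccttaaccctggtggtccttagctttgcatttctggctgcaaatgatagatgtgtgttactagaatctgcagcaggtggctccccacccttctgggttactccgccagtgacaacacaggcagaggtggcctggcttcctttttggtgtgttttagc
Cxcr6, plus strand, chr9:123806227-123806476: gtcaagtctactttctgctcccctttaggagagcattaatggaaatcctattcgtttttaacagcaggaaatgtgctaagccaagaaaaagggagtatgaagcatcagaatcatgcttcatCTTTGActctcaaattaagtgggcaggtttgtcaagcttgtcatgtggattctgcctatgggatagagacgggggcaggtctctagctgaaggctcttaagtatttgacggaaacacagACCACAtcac
Il1rl1, first of the 2 starts shown, plus strand, chr1:40429320-40429569: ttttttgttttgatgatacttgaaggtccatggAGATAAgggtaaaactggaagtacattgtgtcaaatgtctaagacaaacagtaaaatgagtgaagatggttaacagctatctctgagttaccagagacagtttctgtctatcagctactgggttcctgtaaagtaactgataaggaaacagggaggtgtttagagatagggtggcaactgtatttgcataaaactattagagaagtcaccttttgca
Il1rl1, second of the 2 starts shown, plus strand, chr1:40439379-40439628: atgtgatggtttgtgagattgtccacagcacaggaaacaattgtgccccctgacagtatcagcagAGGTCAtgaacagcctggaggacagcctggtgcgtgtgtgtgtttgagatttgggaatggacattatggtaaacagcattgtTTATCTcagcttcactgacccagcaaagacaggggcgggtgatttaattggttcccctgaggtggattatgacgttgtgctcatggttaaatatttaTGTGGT
Ltb, plus strand, chr17:35194257-35194506: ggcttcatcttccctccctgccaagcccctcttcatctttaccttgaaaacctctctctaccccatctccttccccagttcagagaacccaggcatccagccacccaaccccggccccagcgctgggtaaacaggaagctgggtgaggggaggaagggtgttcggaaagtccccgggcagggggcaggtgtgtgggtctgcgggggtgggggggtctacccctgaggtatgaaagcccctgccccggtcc
Both Il1rl1 windows lie inside the span that the annotation gives the gene, which begins further upstream at 40404864. In the Cxcr6 window a RUNX match on the minus strand lies 10 bases before the start and a TCF/LEF match lies 129 bases before it. The first Il1rl1 start has a GATA match 217 bases before it. The second has a RUNX match at 6 bases, a GATA match on the minus strand at 103 and a ROR half-site at 185. The Ccr9 and Ltb windows hold none of these letters. Such matches are frequent in windows of this length. The RUNX letters occur in 14.0% of all 32851 promoter windows, the TCF/LEF letters in 13.8%, the GATA letters in 9.99%, the E-box in 13.0% and the ROR half-site in 14.0%. Among the 11655 windows of tested genes the shares were 11.3%, 10.6%, 6.21%, 11.5% and 10.7% in the same order. Among windows of genes higher in ILCP_WT the shares were 14.0%, 12.5%, 7.44%, 13.1% and 14.9%, each above the share in tested genes and none but the E-box and the ROR half-site above that in all windows. These differences between shares were not tested. Among windows of genes lower in ILCP_WT they were 10.7%, 9.11%, 6.28%, 13.7% and 13.7%. RefSeq windows were found for 247 of 338 higher genes and 468 of 594 lower genes.

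The genes of the sorting gate were read first, as a check of the labels. Thy1, the surface glycoprotein that separates the gates, was 4.99 and 4.85 in the ILCP_WT libraries. It was -3.002 in the first cEILP_WT library and at the lowest value in the others, and rose in ILCP_WT (limma, adjusted p = 0.0107). Flt3, the receptor of a progenitor growth factor, was 3.98 and -0.14 in ILCP_WT against 6.69, 8.26 and 6.98 in cEILP_WT. It fell by 5.15 on the log2 scale (SE 0.713, limma adjusted p = 0.0011), with no overlap between the groups. Its log2 difference was -3.49 in batch 1 and -7.12 in batch 2. Il7r, which encodes IL-7Ra, was 10.58 and 10.84 in ILCP_WT against 7.59, 6.85 and 6.70 in cEILP_WT. The groups did not overlap, but the difference missed the threshold (limma, adjusted p = 0.455). Without the EILP_WT and EILP_KO libraries it passed (limma, adjusted p = 0.00162), and with the mean of the Y-linked genes as a covariate its fitted difference was -1.48. Zbtb16, the reporter gene of the cEILP_WT gate, overlapped between the groups at 6.62 and 7.32 in ILCP_WT and 6.96, 6.80 and 6.71 in cEILP_WT. Tcf7 was 9.89 and 10.17 in ILCP_WT against 11.34, 11.06 and 11.14 in cEILP_WT, a fall of 2.29 times (limma, adjusted p = 0.0436). The Tcf7 call was lost in each of the 5 fits that left out 1 library of the 2 groups, with an adjusted p of up to 0.171. Itga4, the alpha chain of the a4b7 integrin, was 8.22 and 8.13 against 9.65, 9.85 and 9.58, and fell by 1.50 on the log2 scale (limma, adjusted p = 0.000518). Kit, Itgb7 and Cd244, which encodes 2B4, did not pass, with limma adjusted p of 0.427, 0.187 and 0.0639.

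ILCP_WT cells were set apart by higher levels of a part of the cytokine and chemokine receptor genes, and by lower levels of stem and progenitor genes. Of 12572 genes, 932 changed at a limma adjusted p under 0.05, which is 7.41% of those tested. ILCP_WT was higher for 338 genes (2.69%) and lower for 594 genes (4.72%). Changes of at least 1 log2 unit made up 748 of these calls, 291 higher and 457 lower. The median difference over all tested genes was -0.07 log2 units, and the median SE was 0.677. Counts of called list members below are to be read against the shares of 2.69% higher and 4.72% lower. In 3 of the 932 the libraries of the groups overlapped. All cEILP_WT libraries lay at the lowest value for 62 of the higher genes, and both ILCP_WT libraries for 111 of the lower genes. The reach of these calls is limited by the design. A fit on the 5 libraries alone called 0 genes by limma, with 2533 at an unadjusted p under 0.05, and a fit with the mean of the Y-linked genes as a covariate called 305 (86 higher and 219 lower). Without cEILP_WT library 1, 2 or 3 the count was 585, 548 or 509. Without the first or second ILCP_WT library the higher genes numbered 154 or 165.

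**Figure D1:**
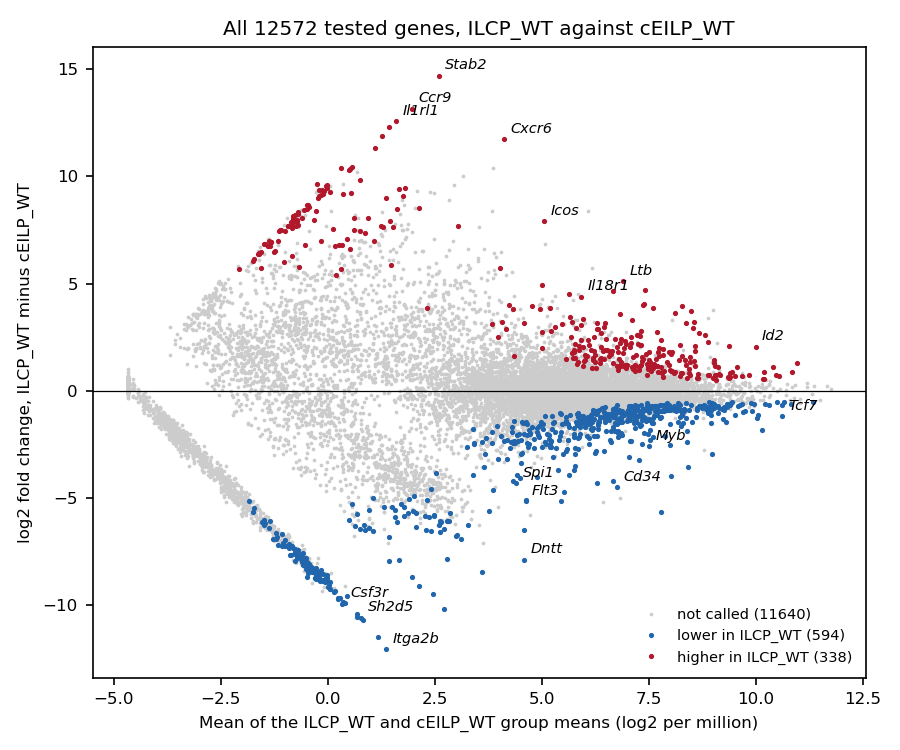
Log2 difference (ILCP_WT minus cEILP_WT, vertical axis) of each tested gene against the mean of the 2 group means (log2 CPM, horizontal axis). Each point is a gene, with the 338 higher genes in red and the 594 lower genes in blue, and the 2 slanted edges at the left hold genes whose values in a whole group lie at the lowest value.

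The 15 largest rises by the naming rule, which asks for a changed gene of at least 1 log2 unit without overlap between the groups, were led by Stab2, a scavenger receptor gene. It was 9.88 and 10.10 in the ILCP_WT libraries and at the lowest value in all cEILP_WT libraries (limma, adjusted p = 0.00237). Ccr9, the receptor for the gut and thymus chemokine CCL25, was 8.27 and 8.77 against -4.14 and 2 libraries at the lowest value (limma, adjusted p = 0.000258). Il1rl1 encodes ST2, the receptor for interleukin 33. It was 8.07 and 7.93 in ILCP_WT and at the lowest value in every cEILP_WT library (limma, adjusted p = 0.0035). Both receptors were thus close between the 2 ILCP_WT libraries and near or at the lowest value in the other group. Syne2, which encodes a nuclear envelope protein, was 4.68 and 4.87 against 3 libraries at the lowest value (limma, adjusted p = 0.000894). Ncr1, the gene of the activating receptor NKp46, was 6.29 and 7.03 against 0.48 and 2 libraries at the lowest value (limma, adjusted p = 0.0413). The others were Pxdc1, Asb2, Cxcr6, Sdc4, She, Gdpd5, Serinc2, Sema4f, Gimap3 and Cspg5, and 10 of the 15 had every cEILP_WT library at the lowest value. Gimap3 belongs to a family of similar neighbouring genes and may share reads with them. With the mean of the Y-linked genes as a covariate, only Ccr9, Pxdc1 and Syne2 of the 15 kept the call. Stab2, Il1rl1, Gdpd5 and Cspg5 then had limma adjusted p of 0.0548, 0.0625, 0.125 and 0.0517. Stab2, Ccr9, Il1rl1, Pxdc1, Gdpd5, Syne2 and Cspg5 were called in each of the 5 fits without 1 library. The remaining 8 lost the call in 1 or more of them, with an adjusted p of up to 0.219 for Cxcr6.

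The 15 largest falls were led by Itga2b, the integrin gene known from stem cells and megakaryocytes. It was 7.24, 7.10 and 7.48 in cEILP_WT and at the lowest value in both ILCP_WT libraries (limma, adjusted p = 0.00142). Drc7 was 6.28, 6.54 and 5.80 in cEILP_WT and at the lowest value in ILCP_WT (limma, adjusted p = 5.17e-07). Csf3r, the receptor for granulocyte colony-stimulating factor, was 5.21, 5.68 and 5.07 in cEILP_WT and at the lowest value in ILCP_WT (limma, adjusted p = 7.96e-06). These genes thus lay well above the lowest value in every cEILP_WT library. Muc13, a cell surface mucin gene, was -0.18 in 1 ILCP_WT library and at the lowest value in the other, against 6.82, 7.72 and 7.22 (limma, adjusted p = 6.23e-05). The list also held Sstr2, Sh2d5, Ak4, Cercam, Rab44, Zfp128, Dgke, Gpr146, Zfp184, Aqp1 and Clec4e. In 13 of the 15, both ILCP_WT libraries lay at the lowest value. Among all tested genes, 360 were at the lowest value in both ILCP_WT libraries and in no cEILP_WT library, and 84 showed the reverse. These 2 counts are not alike, since the first asks for 2 libraries at the lowest value and the reverse for 3. The ILCP_WT libraries also held more genes at that value, 2124 and 2224 against 1246 to 1494. Sstr2, Zfp128 and Clec4e lost the call in 1 or more of the 5 fits without 1 library, with an adjusted p of up to 0.242, and the other 12 kept it.

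**Figure D2:**
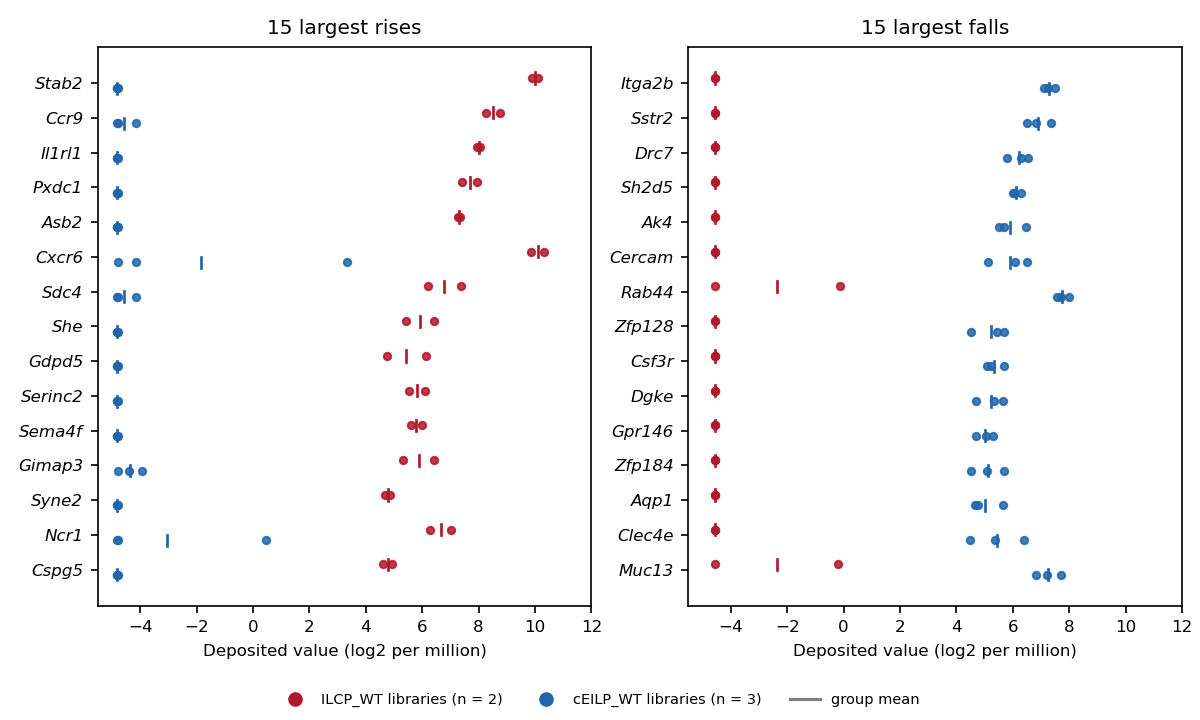
Deposited values (log2 CPM, horizontal axis) of the 15 largest rises (left) and falls (right) by library. Points are libraries and ticks are group means. No ILCP_WT point overlaps a cEILP_WT point, and most low groups sit together at the lowest value.

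Of 28 cytokine receptor genes tested, 8 rose and 3 fell, against 2.69% and 4.72% of all tested genes. Their median difference was 1.61 log2 units against -0.07 over all tested genes. Their summed level was 6613 to 6787 CPM in the ILCP_WT libraries and 2409 to 2540 in cEILP_WT. Il7r, whose product the ILCP_WT gate used and which was not called, is part of that sum. It stood at 10.58 and 10.84 against 7.59, 6.85 and 6.70 on the log2 scale. Il2rg, the common gamma chain shared by the receptors for interleukins 2, 7 and 15, was 9.79 and 9.44 in ILCP_WT against 7.55, 7.59 and 7.43. It rose 4.24-fold (log2 difference 2.08, SE 0.255, limma adjusted p = 0.000487). Ifngr1, a chain of the interferon gamma receptor, was 9.98 and 10.09 against 6.91, 7.50 and 7.42, a 6.58-fold rise (limma, adjusted p = 0.000207). Tgfbr2, the type II receptor of TGF-beta, was 8.79 and 8.69 against 6.29, 5.80 and 5.56, a 6.97-fold rise (limma, adjusted p = 0.00122). In these 3 genes each ILCP_WT library was above every cEILP_WT library, and the 2 ILCP_WT libraries were close to each other. Il17rb, a chain of the interleukin 25 receptor, was 8.50 and 8.54 against 5.79, 5.73 and 3.84 (limma, adjusted p = 0.000983). Il18r1, the binding chain of the interleukin 18 receptor, was 8.13 and 7.96 against 3.76, 4.19 and 3.45, a 21.1-fold rise (limma, adjusted p = 0.00572). With Il1rl1, RNA of 1 chain each of the receptors for interleukins 33, 25 and 18 was thus higher. Il18rap, the other chain of the interleukin 18 receptor, did not pass (limma, adjusted p = 0.115). Il27ra and Ifngr2 also rose, by 3.18 and 2.87 log2 units, but were lost in 3 and 4 of the 5 fits without 1 library. Those that fell were Flt3, Il21r and Il10ra. Il21r, the interleukin 21 receptor, was at the lowest value in both ILCP_WT libraries and 3.54, 4.79 and 4.82 in cEILP_WT (limma, adjusted p = 0.000141). Il10ra, a chain of the interleukin 10 receptor, was 4.36 and 3.51 against 6.73, 7.01 and 6.36 (limma, adjusted p = 0.000506).

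Against 2.69% and 4.72% of all tested genes, 9 of 27 chemokine and homing receptor genes tested rose and 4 fell, with a median difference of 2.78 log2 units. Fits without 1 library called between 3 and 8 of them higher, and the fit with the Y-linked covariate called 2. Ccr2, the receptor for monocyte chemoattractant chemokines, was 10.12 and 10.29 in ILCP_WT against 7.15, 6.12 and 5.69, a 15.7-fold rise (limma, adjusted p = 0.0133). Ccr7, which guides lymphocytes to lymph nodes, was 6.81 and 7.13 against 4.57, 3.77 and 3.59, an 8.72-fold rise (limma, adjusted p = 0.00586). Cxcr6, the receptor for CXCL16, was 10.34 and 9.86 against 3.34, -4.14 and a library at the lowest value (limma, adjusted p = 0.0465). Both ILCP_WT libraries were high for Cxcr6, while the cEILP_WT libraries ranged from the lowest value to 3.34. Ccr6 was 7.38 and 4.79 against 1.87 and 2 libraries at the lowest value (limma, adjusted p = 0.032), and Ccr10 was 4.70 and 4.36 against 3 libraries at the lowest value (limma, adjusted p = 0.00894). The integrin genes Itgal and Itgb2, which encode the chains of LFA-1, rose by 1.09 and 1.71 log2 units, and Selplg, the selectin ligand PSGL-1, by 0.73. Cx3cr1, Cxcr2 and Itga4 were among those that fell. Cx3cr1 and Cxcr2 were at the lowest value in both ILCP_WT libraries. Ccr9, Cx3cr1 and Itga4 kept their calls in each of the 5 fits without 1 library. Ccr2, Ccr6, Ccr7, Ccr10, Cxcr2, Cxcr6, Itgal, Itgb2 and Selplg did not, with an adjusted p between 0.0534 and 0.219 at their weakest.

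Of 18 ILC effector and surface genes tested, 6 rose and 0 fell by limma (12 and 1 at an unadjusted p under 0.05). All but Serpine2 had a positive difference, the median was 5.99 log2 units, and 16 of the 18 had both ILCP_WT libraries above every cEILP_WT library. Over all tested genes that was so for 19.8%, and the reverse for 19.9%. For members such as Lta, Tnfsf11, Tnfrsf11a and Klrb1b, 2 cEILP_WT libraries lay at the lowest value. The size of the median depends on such values. Ltb, the membrane-bound lymphotoxin chain needed for lymphoid tissue formation, was 9.52 and 9.40 in ILCP_WT against 4.92, 4.17 and 3.91. It rose 35.0-fold (log2 difference 5.13, SE 0.611, limma adjusted p = 0.000428), and the 2 ILCP_WT libraries differed by less than the cEILP_WT libraries did. Lta, the soluble lymphotoxin chain, was 5.57 and 6.05 against 0.35 and 2 libraries at the lowest value (limma, adjusted p = 0.00583). With the Y-linked covariate Lta missed the threshold (limma, adjusted p = 0.0756). Icos, a costimulatory receptor gene of group 2 ILC and T cells, was 9.13 and 8.75 against 1.16, 2.31 and -0.02 (limma, adjusted p = 0.00769). Both ILCP_WT values of Icos were thus far above each cEILP_WT value. Cd2, an adhesion molecule gene, was 2.28 and 3.57 in ILCP_WT and at the lowest value in every cEILP_WT library (limma, adjusted p = 0.0133). Klrb1f, a lectin-like receptor whose near-identical relatives may share its reads, rose by 1.83 log2 units. Thy1, which the gates themselves used, is the sixth. Without 1 library of either group 2 to 8 of the list were called higher, and 1 with the Y-linked covariate. Ltb and Lta kept their calls in each of the 5 fits without 1 library. Icos missed the threshold without the first or second ILCP_WT library, with an adjusted p of up to 0.0509.

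Of 20 genes for transcriptional regulators of ILC, 1 rose and 2 fell, against 2.69% and 4.72% of all tested genes. Id2, the inhibitor of E proteins that ILC need, was 10.84 and 11.23 in ILCP_WT against 9.41, 9.10 and 8.33, a 4.19-fold rise (limma, adjusted p = 0.00894). Without the second ILCP_WT library its adjusted p was 0.0556. Those that fell were Tcf7 and Runx3, a RUNX factor gene, which was 6.43 and 6.86 against 8.31, 7.82 and 7.94 (limma, adjusted p = 0.00318). ILCP_WT and cEILP_WT did not overlap for 13 of the 20 regulators that lay higher and 4 that lay lower. Over all tested genes the shares were 19.8% and 19.9%, so the 4 lower ones are near that share. Gata3, which group 2 ILC need, was 9.48 and 10.14 against 8.01, 8.01 and 8.02 (limma, adjusted p = 0.257). Rora was 10.01 and 10.60 against 8.44, 7.70 and 7.42 (limma, adjusted p = 0.597). These genes were separated between the groups but did not pass in the fit of all libraries. Ets1 was 10.92 and 11.06 against 7.24, 7.10 and 6.62, with an SE of 2.06 log2 units (limma, adjusted p = 0.313). Its SD was 0.10 within ILCP_WT and 0.32 within cEILP_WT, but the fit takes the spread from all groups. In sEILP_WT Ets1 was -1.71 and 5.87, and in EILP_WT 0.93, 6.30 and 7.98. Maf was 7.78 and 8.18 against 2.07, 1.38 and -4.41 (limma, adjusted p = 0.0749). Nfil3, which ILC progenitors need early, was 5.09 and 6.30 against 7.63, 8.55 and 6.79 (limma, adjusted p = 0.0708). Bcl11b, Lef1 and Ahr did not pass either, with limma adjusted p of 0.237, 0.33 and 0.111. With the Y-linked covariate the fitted differences of Rora and Lef1 turned to -0.07 and -0.11.

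Stem and multipotent progenitor genes had the largest share of falls among the 27 lists. By limma 9 of the 23 tested fell and 0 rose (11 and 1 at an unadjusted p under 0.05), against 4.72% and 2.69% of all tested genes. Their median difference was -1.95 log2 units. For 14 of them both ILCP_WT libraries lay below every cEILP_WT library, against 19.9% of all tested genes, and for 2 both lay above. Their summed level was 1164 to 1172 CPM in ILCP_WT and 3203 to 3672 in cEILP_WT. Fits without 1 library called 6 to 8 of them lower, and the fit with the Y-linked covariate called 6. Cd34, a surface marker of progenitors, was 5.22 and 3.68 in ILCP_WT against 8.93, 9.52 and 8.76, a 22.6-fold fall (SE 0.308 log2 units, limma adjusted p = 7.96e-06). Myb, a transcription factor of progenitor growth, was 6.20 in both libraries against 8.66, 8.81 and 8.92, a 5.95-fold fall (limma, adjusted p = 2.34e-05). Sox4, another transcription factor gene, was 6.85 and 6.57 against 9.27, 9.29 and 9.27, a 5.75-fold fall (limma, adjusted p = 8.29e-06). For these genes the cEILP_WT libraries were close to each other, and every ILCP_WT library was lower. Mycn was 6.38 and 6.53 against 8.28, 8.23 and 8.44 (limma, adjusted p = 0.00248). Hoxa9, a homeobox gene of early progenitors, was -0.64 and -0.14 against 4.71, 3.98 and 4.52 (limma, adjusted p = 0.00172). Mef2c fell by 2.20 log2 units (limma, adjusted p = 0.0103) and Tal1 was at the lowest value in both ILCP_WT libraries (limma, adjusted p = 0.0399). The calls for Cd34, Flt3, Hoxa9, Myb, Mycn and Sox4 held in each of the 5 fits without 1 library, whereas Mef2c was lost in 1, Bcl11a in 2 and Tal1 in all 5.

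**Figure D3:**
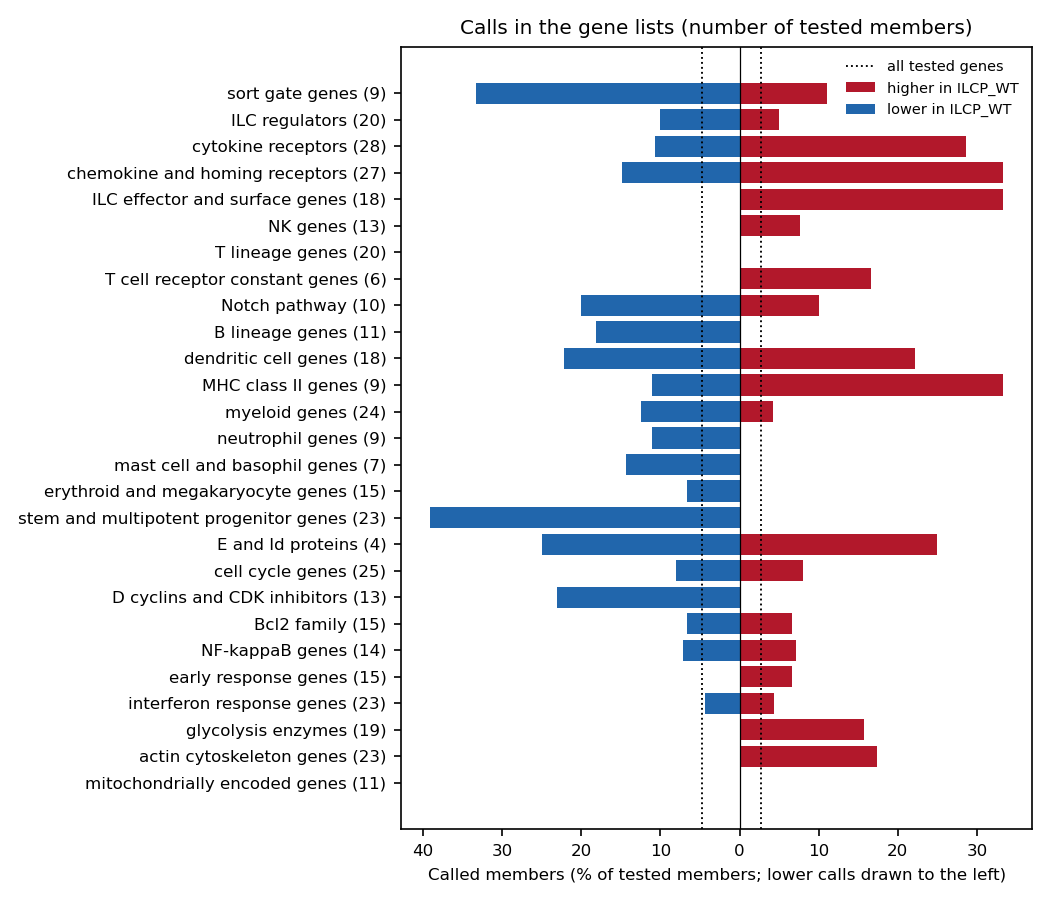
Share of tested members called higher (right) and lower (left) in ILCP_WT for each of the 27 gene lists, in percent, with the number of tested members in brackets. Dotted lines give the shares over all tested genes, 2.69% higher and 4.72% lower.

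A few growth and cycle genes moved. Myc, a driver of growth, was 6.36 and 6.69 in ILCP_WT against 8.33, 8.87 and 8.78, a 4.46-fold fall (limma, adjusted p = 0.000438). Of 13 genes for D cyclins, their kinases and their inhibitors, 3 fell and 0 rose by limma (5 and 2 at an unadjusted p under 0.05). They were Cdk4, Cdk6 and Cdkn1a. Cdkn1a, which encodes the inhibitor p21, was 3.54 and 3.83 against 7.66, 7.59 and 7.52, a 15.3-fold fall (SE 0.294 log2 units, limma adjusted p = 1.44e-05). The Cdkn1a values were close within each group and far apart between them. Of 25 cell cycle genes, 2 rose and 2 fell, against 2.69% and 4.72% of all tested genes, with a median of 0.35 log2 units. The mitotic cyclin genes Ccna2 and Ccnb2 rose by 1.12 and 0.98 log2 units, and the replication helicase genes Mcm6 and Mcm7 fell by 0.65 and 0.87. Those 4 calls, with Cdk4 and Cdk6, were each lost in 2 or more fits without 1 library, with an adjusted p of up to 0.402 for Ccnb2, while Myc and Cdkn1a were called in each.

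Of 19 glycolysis enzyme genes, 3 rose and 0 fell by limma (4 and 3 at an unadjusted p under 0.05), against 2.69% and 4.72% of all tested genes. Pkm, the pyruvate kinase gene, was 11.10 and 10.77 in ILCP_WT against 9.80, 9.71 and 10.03 (log2 difference 1.11, limma adjusted p = 0.00133). Eno1 and Aldoa rose by 0.88 and 0.66 log2 units. Of 23 genes of the actin cytoskeleton list, which also holds genes of other proteins, 4 rose and 0 fell by limma (14 and 1 at an unadjusted p under 0.05). Among them was Vim, the gene of the intermediate filament protein vimentin, at 8.62 and 8.05 against 5.53, 6.89 and 6.32 (limma, adjusted p = 0.00997). The others were Pfn1, S100a10 and Anxa1. Without 1 library the actin count ran from 0 to 3, and it was 11 after cyclic loess normalization. Among NF-kappaB genes Nfkb1 fell, at 7.39 and 7.38 against 9.22, 9.55 and 8.50 (limma, adjusted p = 0.00134). Nfkbiz, an atypical inhibitor protein gene, rose, at 4.91 and 5.41 against -2.70 and 2 libraries at the lowest value (limma, adjusted p = 0.0048). In the Bcl2 family the death gene Bid fell by 2.47 log2 units. Bcl2a1d rose, at 2.58 and 3.82 against 3 libraries at the lowest value (limma, adjusted p = 0.0071), and near-identical copies may share its reads. With the Y-linked covariate Pkm, Nfkb1 and Bid kept their calls. Eno1, Nfkbiz and Bcl2a1d did not, with limma adjusted p of 0.0559, 0.0645 and 0.107. Pkm, Eno1, Nfkb1, Nfkbiz, Bid and Bcl2a1d kept their calls in each of the 5 fits without 1 library.

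Markers of other cell types moved beside these groups. In bulk samples, a change in the share of cells of a type and a change in RNA per cell cannot be told apart. Of 20 T lineage genes 0 passed by limma (2 higher and 3 lower at an unadjusted p under 0.05), with a summed level of 1450 to 1674 CPM in ILCP_WT and 937 to 953 in cEILP_WT. Of 6 T cell receptor constant genes 1 rose, Trac, at 4.23 and 3.58 against -1.41 and 2 libraries at the lowest value (limma, adjusted p = 0.032), and it was lost in 4 of the 5 fits without 1 library. Cd3e was 4.16 and 3.67 in ILCP_WT against -0.01, 0.98 and a library at the lowest value. Cd5 was at the lowest value in both ILCP_WT libraries against 2.53, 0.88 and 1.70. Both ILCP_WT libraries lay above every cEILP_WT library for 10 of the 20 T lineage genes and below for 3. Over all tested genes these shares were 19.8% and 19.9%. For the T cell receptor constant genes it was 5 of 6 above and 0 below. Of 13 natural killer genes 1 rose, Ncr1, and the summed level was 798 to 954 CPM against 319 to 463. For 9 of the 13 both ILCP_WT libraries lay above every cEILP_WT library, against 19.8% of all tested genes. Klrb1c was 5.05 and 5.96 in ILCP_WT against 3 libraries at the lowest value (limma, adjusted p = 0.0586). Eomes was 4.78 and 4.92 against 4.61 and 2 libraries at the lowest value (limma, adjusted p = 0.247). Prf1 was at the lowest value in all 5 libraries. The part of T or natural killer cells in the rises above was not tested.

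Of 18 dendritic cell genes 4 rose and 4 fell, against 2.69% and 4.72% of all tested genes. Those higher were Id2, Ccr9, Xcr1 and Batf3, and those lower Flt3, Irf8, Ly6d and Bcl11a. Batf3 and Ly6d were lost in all 5 fits without 1 library, Xcr1 and Bcl11a in 2 and Id2 in 1, and without the second ILCP_WT library 1 of the 4 rises, Ccr9, was left. Clec9a and Itgax were at the lowest value in all 5 libraries, and Siglech in both ILCP_WT libraries and 2 of cEILP_WT. Irf4 and Zbtb46 were 4.22 and 4.66 in the second ILCP_WT library and at the lowest value in the first. The summed level of the list was 2588 to 3355 CPM in ILCP_WT and 882 to 2029 in cEILP_WT, and Id2 and Ccr9 are part of that sum. Of 9 MHC class II genes 3 rose and 1 fell. Cd74, the invariant chain gene, was 10.24 and 9.07 against 5.96, 6.38 and 3.11, a 26.4-fold rise (limma, adjusted p = 0.00312). H2-Ab1 rose by 2.31 log2 units and H2-Oa by 3.15, while H2-Ob fell by 1.203. The second ILCP_WT library was lower than the first for both Cd74 and H2-Ab1. With the Y-linked covariate 0 of the MHC class II genes were called higher by limma, and Cd74 had an adjusted p of 0.0675. Of the 4 MHC class II calls, Cd74 alone was kept in each of the 5 fits without 1 library.

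Of 24 myeloid genes 1 rose, Ccr2, and 3 fell, against 2.69% and 4.72% of all tested genes. The median of the list was -1.53 log2 units, with a summed level of 1938 to 2721 CPM in ILCP_WT against 2471 to 3879. Spi1, which encodes PU.1, was 4.43 and -0.14 in ILCP_WT against 6.79, 7.52 and 5.68 (limma, adjusted p = 0.00586). Ncf1, a subunit of the phagocyte oxidase, was 4.58 and 3.09 against 7.84, 8.21 and 6.86 (limma, adjusted p = 3.19e-05). Csf3r fell too. The fall of Spi1 and Ncf1 was seen against every cEILP_WT library, and all 3 falls kept their calls in each of the 5 fits without 1 library. Of 9 neutrophil genes 1 fell, Cxcr2, and the summed level was 14.5 to 71.4 CPM in ILCP_WT and 5.05 to 879 in cEILP_WT, with the highest in the third cEILP_WT library. Of 7 mast cell and basophil genes 1 fell, Cpa3, at 6.73 and 6.49 against 10.34, 10.19 and 10.06, an 11.8-fold fall (limma, adjusted p = 0.000426). The basophil gene Prss34 was 8.83 in the first ILCP_WT and 8.91 in the first cEILP_WT library and -4.14 or lower in the others. Of 15 erythroid and megakaryocyte genes 1 fell, Itga2b. Of 11 B lineage genes 2 fell, Dntt and Vpreb3, and both calls were lost in 4 or more fits without 1 library. The part of such cells in the falls was not tested.

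Of 10 Notch pathway genes tested, 1 rose and 2 fell, against 2.69% and 4.72% of all tested genes. Lfng, a glycosyltransferase that modifies Notch receptors, was 6.56 and 6.72 in ILCP_WT against 3.57, 3.30 and 4.52 (limma, adjusted p = 0.00192). Rbpj, the DNA-binding partner of Notch, fell by 1.13 log2 units, and Myc is the other that fell. Of 4 E and Id protein genes tested Id2 rose and Tcf3 fell, by 0.57 log2 units (limma, adjusted p = 0.0474). Rbpj and Tcf3 were lost in 4 and 5 of the 5 fits without 1 library. Of 15 early response genes 1 rose, Klf6, with a summed level of 598 to 617 CPM against 430 to 496. Of 23 interferon response genes Irgm2 rose and Gbp3 fell. Klf6 and Irgm2 were each lost in 4 of the 5 fits without 1 library, and Gbp3 in 1. Of 11 mitochondrially encoded genes 0 passed by limma (2 lower at an unadjusted p under 0.05), and their summed level was 3726 to 6594 CPM in ILCP_WT and 5317 to 7825 in cEILP_WT.

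Several of the risen receptor and ligand genes are neighbours. Positions are from RefSeq on build GRCm38.p6, and these stretches were chosen after their values were seen. On chromosome 9 between 123694404 and 124109140, 8 of 9 protein-coding genes were tested, and 5 were higher and 0 lower in ILCP_WT by limma, as at an unadjusted p under 0.05. They are Lztfl1 (123694404 to 123717625), Ccr9 (123767211 to 123783457), Cxcr6 (123806477 to 123811754), Xcr1 (123852315 to 123862029) and Ccr2 (124101918 to 124109140). The shares over all tested genes were 2.69% higher and 4.72% lower. With the Y-linked covariate Lztfl1 and Ccr9 kept their calls, and Cxcr6, Xcr1 and Ccr2 did not. Cxcr6 and Ccr2 also missed the threshold without the third cEILP_WT library. Lztfl1, a gene of ciliary protein transport, was 7.45 and 7.33 against 3.85, 4.37 and 3.51, an 11.1-fold rise (limma, adjusted p = 0.00189). Xcr1 was 3.24 and 6.03 against -0.64 and 2 libraries at the lowest value (limma, adjusted p = 0.00902), and was lost without the third cEILP_WT or the second ILCP_WT library, with an adjusted p of up to 0.0657. Ccr1 did not pass (limma, adjusted p = 0.654), and Ccr3 was at the lowest value in all 5 libraries. The neighbours thus did not all move. Cxcr6 lies inside the span of Fyco1, which was 5.67 and 4.91 against 2.40, -0.02 and 4.26 (limma, adjusted p = 0.245), so reads may be shared between them. Reads of Ccr2 may be shared with similar genes of its family.

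On chromosome 17 between 35185095 and 35236481, all 5 protein-coding genes were tested, and Ltb (35194507 to 35196305), Tnf (35199367 to 35202007) and Lta (35203165 to 35205578) were higher. The share of higher genes over all tested genes was 2.69%. With the Y-linked covariate Ltb alone kept its call. Tnf, the gene of tumour necrosis factor, was 4.56 and 4.38 against 3 libraries at the lowest value (limma, adjusted p = 0.015). It was lost without the third cEILP_WT or the first ILCP_WT library, with an adjusted p of up to 0.0963. The flanking genes did not pass. Lst1 was 0.42 and at the lowest value in ILCP_WT against 2.71, 0.98 and 2.08 (limma, adjusted p = 0.155). Nfkbil1 was 3.97 and 3.99 against 3.43, 3.30 and 3.88 (limma, adjusted p = 0.843).

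On chromosome 1 between 40084692 and 40768885, 7 of 8 protein-coding genes were tested, and Il1rl1 (40404864 to 40465418) and its neighbour Il18r1 (40465552 to 40500854) were higher. The share of higher genes over all tested genes was 2.69%. With the Y-linked covariate Il18r1 kept its call and Il1rl1 did not. Il18rap, the second chain of the interleukin 18 receptor, was 7.04 and 7.30 against 4.65, 5.55 and 4.14 (limma, adjusted p = 0.115). Il1r1, the receptor for interleukin 1, was 6.50 and 6.01 against 5.84, 6.56 and 5.48, with overlapping groups. Il1r2, the decoy receptor, was 2.94 and at the lowest value in ILCP_WT against 5.23, 4.74 and 2.96 (limma, adjusted p = 0.0917). Il1rl2 and Slc9a2 overlapped between the groups.

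**Figure D4:**
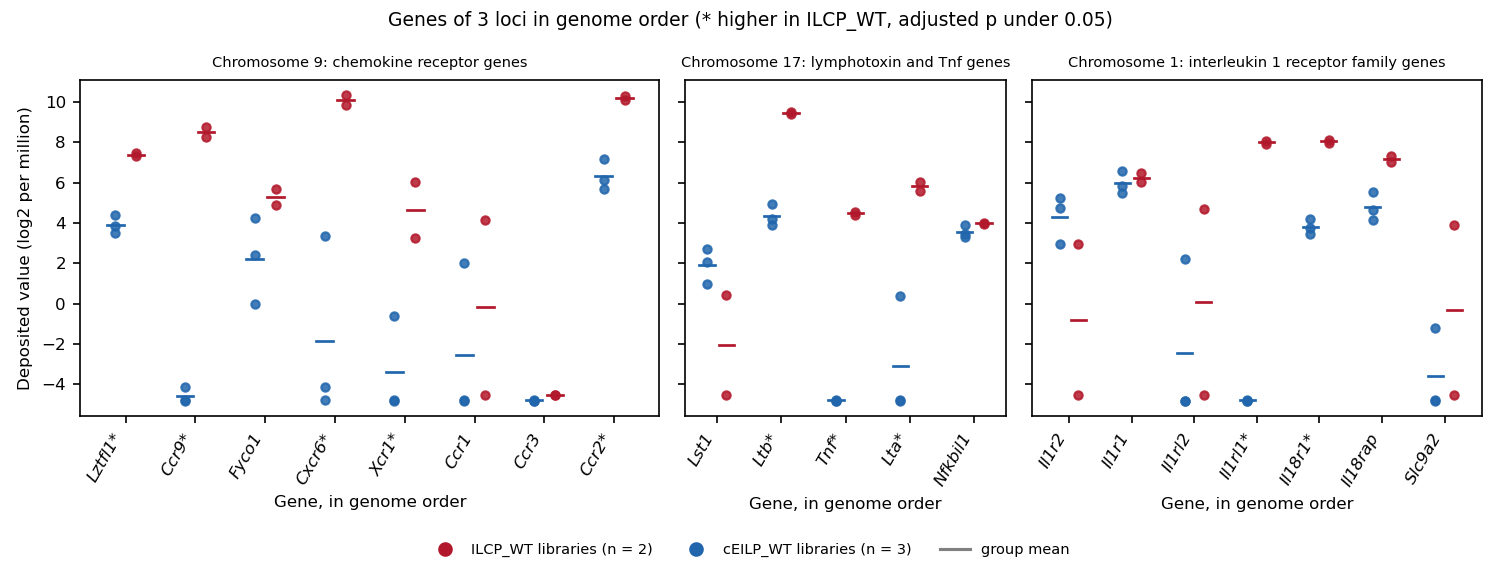
Deposited values (log2 CPM, vertical axis) of the tested genes of the 3 stretches, in genome order. Points are libraries and lines are group means. An asterisk marks a gene higher in ILCP_WT, and in each panel marked genes stand beside neighbours that did not pass.

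The levels in the other populations place the changes along the series. Both ILCP_WT libraries lay above all 8 libraries of ALP_WT, sEILP_WT and EILP_WT for 264 of the 338 higher genes (78.1%), and below all of them for 453 of the 594 lower genes (76.3%). Among all 2485 tested genes with both ILCP_WT libraries above cEILP_WT the share was 42.2%, and among the 2503 below it was 37.2%. The same 8 libraries were in the fit that made the calls, so the shares of called genes are not independent of the calls. The difference between these shares was not tested. Ltb was 3.81 ± 0.81 (SD, n = 3) in ALP_WT, 4.89 ± 0.06 (n = 2) in sEILP_WT, 4.59 ± 0.95 (n = 3) in EILP_WT, 4.33 ± 0.52 (n = 3) in cEILP_WT and 9.46 ± 0.08 (n = 2) in ILCP_WT. The other 4 population means of Ltb thus lay between 3.81 and 4.89, far below ILCP_WT. Id2 was 4.34 ± 0.73 in ALP_WT, 8.30 ± 0.09 in sEILP_WT, 9.69 ± 0.36 in EILP_WT, 8.95 ± 0.56 in cEILP_WT and 11.03 ± 0.28 in ILCP_WT, so that the cEILP_WT level was already above ALP_WT. Ccr9 was 5.78, 2.59 and 3.19 in the ALP_WT libraries and at the lowest value in every sEILP_WT and EILP_WT library, and its ILCP_WT values were above all of these. Cd34 was 10.36 ± 0.22 in ALP_WT, 10.17 ± 0.08 in sEILP_WT, 9.11 ± 0.70 in EILP_WT, 9.07 ± 0.40 in cEILP_WT and 4.45 ± 1.09 in ILCP_WT. Mycn was 5.42 ± 0.37 in ALP_WT, 7.25 ± 0.22 in sEILP_WT, 8.32 ± 0.11 in cEILP_WT and 6.46 ± 0.11 in ILCP_WT, with ILCP_WT between ALP_WT and sEILP_WT.

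**Figure D5:**
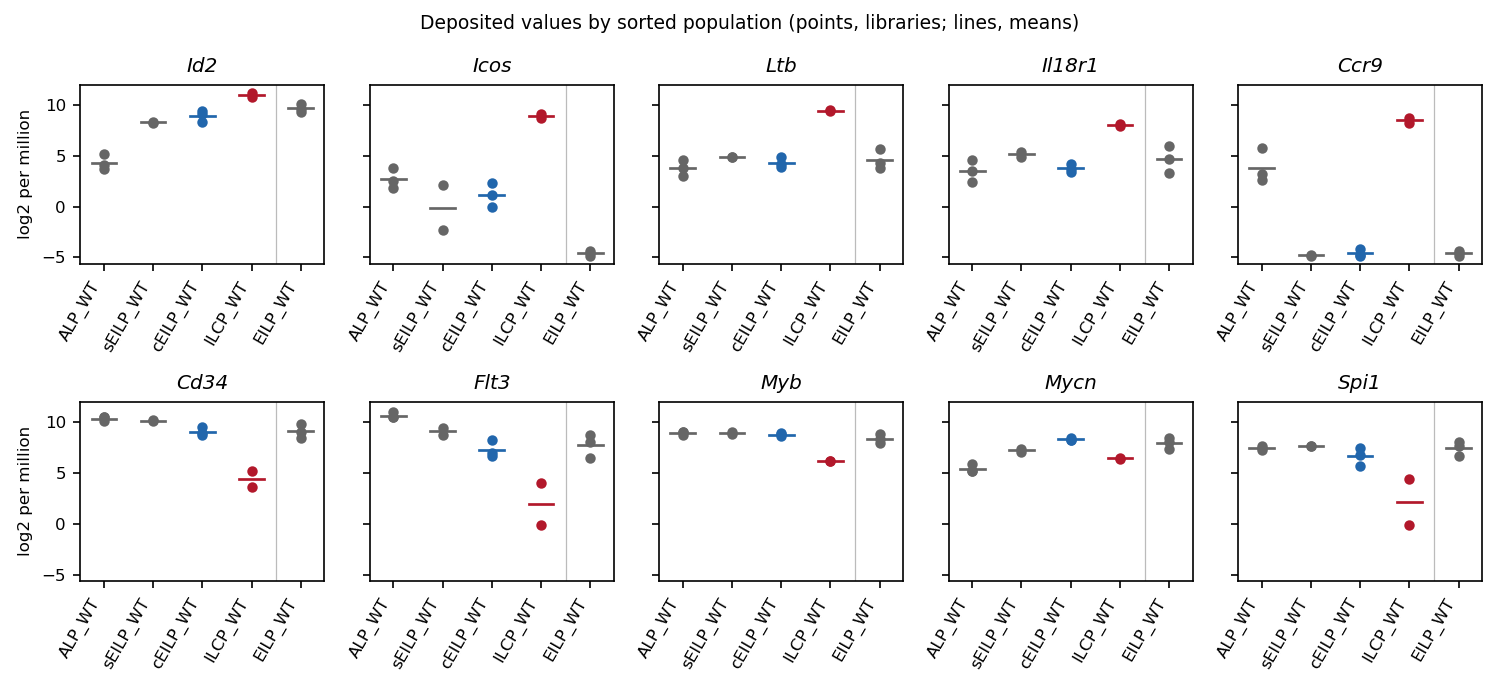
Deposited values (log2 CPM, vertical axis) of 10 changed genes in the 5 populations labelled WT. Points are libraries and lines are means, and EILP_WT, which carries 1 null Tcf7 allele, is set apart at the right. ILCP_WT is highest for the 5 genes of the upper row and lowest for the lower row, except that Mycn is lowest in ALP_WT.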

How the data were processed

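RNA was extracted with RNeasy plus micro kits, and libraries were made with the SMARTer Ultra Low Input v3 and Nextera XT kits, per the labels' protocols. Tools named in the submitters' processing notes are STAR 2.5.2b, RSEM 1.2.23, bcl2fastq 2.17 and limma, with mm10 as the build. The annotation, the filters and the order of these steps are not given in the sources used here. The deposited table holds log2 values; that these are log2 CPM and quantile-normalized was read from the values. Its 24 unnamed columns are empty and were not used. No counts were analysed, so depth is unknown.

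Genes at a log2 value of 0 or more in at least 2 of the 15 libraries were tested. A limma model (version 3.58.1, R 4.3.3) with group and batch (9 and 6 libraries) and an intensity trend was fitted to all libraries, whose other groups share the estimate of spread. P-values were adjusted over all tested genes by Benjamini-Hochberg. The fit was also run on simulated data with Gaussian noise and changes only in genes above the median level. That simulation had no lowest value, so it cannot speak for genes at that value. Overlap treats all lowest values as equal. List members beyond the counts were named where called, and the 15 largest rises and falls were named among changed genes of at least 1 log2 unit without overlap between the groups, above the median level, leaving out predicted and antigen receptor genes. Not called gate genes, regulators and neighbours are named as such. The compared groups, the 27 lists and the naming rule were chosen with earlier results of these data known. 18 alternatives were planned and 3 were added after seeing the data. A few genes are not reported here.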

Additional observations from a re-analysis of the deposited data

How the results depend on the processing

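The count of changed genes (932, with 338 higher and 594 lower) was within 1.5 times its value in both directions with no batch term, no filter or a stricter filter on low values, repeated quantile normalization, cyclic loess and robust empirical Bayes. With values under 0 set to 0 it was 1140 with 511 higher. It was 566 (329 lower) with no intensity trend, 515 (170 higher, 345 lower) with library quality weights, and 188 genes were higher in batch 1 alone. Cyclic loess gave 388 higher and 461 lower genes, so the share of higher calls was 45.7% against 36.3%, and setting values under 0 to 0 gave 44.8%. Batch 1 alone gave 24.4%. A fit of the 5 libraries alone and one of batch 2 alone, with 1 library a group, called 0 genes by limma, with 2533 and 2726 at an unadjusted p under 0.05. Leaving out 1 library of either group gave 509 to 769 changed genes, 154 to 225 higher and 328 to 604 lower. Where this left 1 ILCP_WT library, that library was assumed to vary like the other groups. Of the alternatives added after seeing the data, the mean of the Y-linked genes as a covariate gave 305 (86 higher, 219 lower), leaving out the third EILP_WT library 1067 (394 higher, 673 lower) and leaving out EILP_WT and EILP_KO 1041.

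Libraries of the groups share replicate numbers that the labels tie to nothing. Deviations of same-numbered libraries from their group means correlated at r = -0.02 in both pairs, and those of the other pairs at -0.0009 to 0.020. With 2 ILCP_WT libraries the deviations of 1 mirror those of the other, so the 2 pairs are not separate evidence. With the replicate number as a block in place of the batch, 662 genes changed (242 higher, 420 lower), and 638 of them were among the 932.

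Of 109 called genes followed singly, 53 kept it in each of the 5 fits without 1 library (21 of 58 higher and 32 of 51 lower), and 44 kept it in these and with the Y-linked covariate. None of the 109 calls turned sign in these fits or the other alternatives. Among genes without a call, the difference turned for Il7r (-1.48), Rora (-0.066), Lef1 (-0.11) and Tox2 (-1.11) with the Y-linked covariate. Zbtb16 turned to -0.26 with that covariate, -0.011 after cyclic loess, -0.26 in batch 1, and -0.19 and -0.09 without the third cEILP_WT or second ILCP_WT library, within a range of -0.19 to 0.27 over the fits without 1 library. Tox turned to 0.26 in batch 2 and 0.056 without the first cEILP_WT library, within a range of -0.46 to 0.056 over the fits without 1 library. The cause was not tested. With 2 and 3 libraries and unknown depth, a gene at the lowest value cannot be called absent.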

Other observations

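The gene families below were chosen after their values were seen, so their counts are descriptions, to be read against 2.69% higher and 4.72% lower over all tested genes. Of 45 genes of ribosome biogenesis, 13 were lower in ILCP_WT than in cEILP_WT and 0 higher by limma (25 and 0 at an unadjusted p under 0.05), and 41 of the 45 had a negative difference, with a median of -0.73 log2 units. They include Gnl3, a nucleolar GTPase gene (log2 difference -2.10, limma adjusted p = 0.0048), Polr1b, a subunit of RNA polymerase I (-1.84, limma adjusted p = 0.0154), and Npm1, the nucleophosmin gene (-1.03, limma adjusted p = 0.0126). Of 78 genes of cytosolic ribosomal proteins, 15 were lower and 0 higher by limma (49 and 0 at an unadjusted p under 0.05), with a median of -0.51, and 76 had a negative difference. Their copies elsewhere in the genome may share reads with them.

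Of 65 genes of heat shock chaperones and their partners, 9 were lower and 1 higher. The lower ones include Hspd1 and Hspe1, the mitochondrial chaperonin pair (-0.88 and -1.14), Hsp90aa1 (-0.74) and Hsph1 (-1.73), and the higher one is Dnajc3 (1.57, limma adjusted p = 0.00187). Of 310 zinc finger genes named Zfp with a number, 14 were lower and 1 higher, below the shares over all tested genes.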
